A study of Mus musculus with 30 samples.

Results

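The 6 genes described here encode inhibitors of the muscle transcription factor MyoD: Id1, Id2, Id3, Id4, Twist1 and Twist2. They were chosen by name, and all 10 probe sets that the platform annotation assigns to them alone were followed, among 18193 genes with at least 1 such probe set. The cells were mouse embryonic fibroblasts from MyoD-/-/Myf5-/- animals, so every group, controls included, came from cells without both endogenous myogenic genes and had been infected with a retrovirus. That retrovirus carried ER-MyoD wt (MyoD joined to the hormone-binding domain of the estrogen receptor), ER-MyoD RRR (the same fusion with lysines 99, 102 and 104 mutated so that they cannot be acetylated), or no insert (empty retrovirus). Cells were kept in differentiation medium with beta-estradiol, the ligand that activates such fusions. Each of 10 groups had 3 arrays. All constructs were sampled after 6, 12 and 24 h, and only ER-MyoD wt also at 0 h. The 0 h state of ER-MyoD RRR and empty retrovirus was not analysed here, so what moved in ER-MyoD wt after 0 h cannot be split between medium, hormone and fusion.

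Id proteins are helix-loop-helix proteins without the basic region that contacts DNA. They pair with E proteins, the partners that MyoD needs to bind the E-boxes of muscle genes, and the resulting pairs do not bind DNA. In many cells Id genes are direct targets of bone morphogenetic protein (BMP) signalling and respond to serum. Twist1 and Twist2 keep a basic region, and in mouse cells Twist1 blocks myogenesis by taking up E proteins and by binding MyoD and Mef2 factors. Both Twist genes are typical of mesenchymal cells such as fibroblasts, and Id and Twist genes are generally low in differentiated muscle.

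The sequence before the transcription start is shown for Id2, Id3 and Twist2, the 3 genes whose signal separated the constructs most clearly. Of the 6 genes, 5 had an entry among the RefSeq promoters (build GRCm38.p6), and Id1 is named only. Each line holds the 250 bases before the start, 5′ to 3′ on the gene's strand. Capitals mark the E-box CANNTG, where basic helix-loop-helix proteins bind. They also mark the Smad motif GGCGCC of BMP-responsive genes. The shorter Smad element CAGAC is in capitals as well, in either orientation, and all motifs were searched on both strands. Among the E-boxes, the form CAGCTG was counted apart. So was the form written CACCTG, and both overlap with the general motif.
Id2, chr12:25096093-25096342, minus strand: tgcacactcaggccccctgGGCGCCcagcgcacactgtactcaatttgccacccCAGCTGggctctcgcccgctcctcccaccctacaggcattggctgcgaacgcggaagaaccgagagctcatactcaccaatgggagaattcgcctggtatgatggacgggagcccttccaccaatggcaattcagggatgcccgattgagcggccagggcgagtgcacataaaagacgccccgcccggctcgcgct
Id3, chr4:136143572-136143821, plus strand: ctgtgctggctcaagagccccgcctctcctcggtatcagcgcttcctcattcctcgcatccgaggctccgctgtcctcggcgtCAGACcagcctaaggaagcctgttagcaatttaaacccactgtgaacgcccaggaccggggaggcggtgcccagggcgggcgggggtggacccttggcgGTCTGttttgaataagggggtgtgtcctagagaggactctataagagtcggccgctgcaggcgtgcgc
Twist2, chr1:91801211-91801460, plus strand: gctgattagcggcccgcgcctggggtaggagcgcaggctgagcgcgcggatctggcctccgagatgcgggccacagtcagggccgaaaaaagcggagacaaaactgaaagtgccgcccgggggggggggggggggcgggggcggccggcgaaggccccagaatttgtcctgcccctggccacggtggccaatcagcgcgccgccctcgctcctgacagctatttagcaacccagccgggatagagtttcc
Over the window of 250 bases before to 50 bases after the start, Id2 held 1 E-box, a CAGCTG that begins at position -196, and 1 GGCGCC at -231. Id3 held 2 CAGAC motifs, at -167 and -68, and no E-box. Twist2 held none of these motifs. Id4 held 1 GGCGCC and Twist1 1 CAGAC. Among all 32851 promoters of this length, 72.3% held CANNTG, 16.3% CAGCTG, 20.2% CACCTG, 11.9% GGCGCC and 49.6% CAGAC.

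The deposited values are linear array signals, 1 per probe set and array, with medians of 38.0 to 64.1 per array. Within a group Pearson's r was at least 0.925, and 22 of 30 arrays were nearest to an array of their own group. Earlier work on these data set 3 arrays apart. ER-MyoD RRR 6 h replicate 2 had 3' to 5' signal ratios of 2.44 for Gapdh and 3.61 for Actb, where a low ratio marks intact RNA, against at most 1.40 and 2.07 on the other arrays. Empty retrovirus 12 h replicate 1 and ER-MyoD wt 24 h replicate 3 had the highest medians, 64.1 and 59.2. Myod1 signal was above empty retrovirus in both fusions at 6 h, by 2.32 ± 0.35 on the log2 scale in ER-MyoD wt and 2.10 ± 0.35 in ER-MyoD RRR (limma, adjusted p = 3.19e-05 and 0.000149). The differences were 2.03 and 1.42 at 12 h (adjusted p = 0.000159 and 0.0124) and 1.45 and 1.07 at 24 h (0.00344 and 0.0450). ER-MyoD RRR minus ER-MyoD wt was -0.22, -0.61 and -0.38 at 6, 12 and 24 h, each ± 0.35, and did not pass (adjusted p = 0.867, 0.735 and 0.765). Where the Myod1 probes lie relative to the deletion is not known, so they do not check it. All 12 fibroblast markers were measured, and all but Lum (25.2 to 210.3) had group means of at least 67.3. The 6 endothelial markers, of a cell type rich in Id1 and Id3, had group means between 2.17 and 112. Those of Tie1, Pecam1, Tek, Cdh5, Emcn and Kdr were at most 5.08, 24.3, 27.6, 51.6, 61.7 and 112. Their summed signal was 123 to 144 on the ER-MyoD wt 0 h arrays and 73.9 to 324 on the other 27 arrays. The 6 measured neural and glial markers, of types rich in Id2 and Id4, summed to 355 to 460 in ER-MyoD wt at 0 h. At 24 h they summed to 1309 to 2076 in ER-MyoD wt and 1383 to 1494 in ER-MyoD RRR. In empty retrovirus they summed to at most 447. Nes had group means of 98.4 to 1420, while those of Sox10, Gfap, Tubb3, Sox2 and Map2 were at most 127, 85.6, 140, 20.2 and 59.0. The higher sums therefore came mainly from Nes and not from the markers as a set. Skeletal muscle markers summed to 1131 to 1303 in ER-MyoD wt at 0 h and 22069 to 26659 at 24 h, to 15722 to 17733 in ER-MyoD RRR at 24 h, and to at most 229 in empty retrovirus. The part of these shifts in cell state in the results below was not tested. In such bulk samples, fewer cells that express a gene and less RNA per cell cannot be told apart.

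Differences are given on the log2(signal + 16) scale after quantile normalization, with the standard error of a limma model of all 30 arrays. That scale understates the change of a dim probe set. A difference passed at a Benjamini-Hochberg adjusted p under 0.05 over 45037 probe sets. Nothing in the labels says whether the 3 arrays of a group are separate cultures, so the p-values describe the spread among these arrays only, and that spread may be technical. Precision is limited by the number of arrays.

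**Figure D1:**
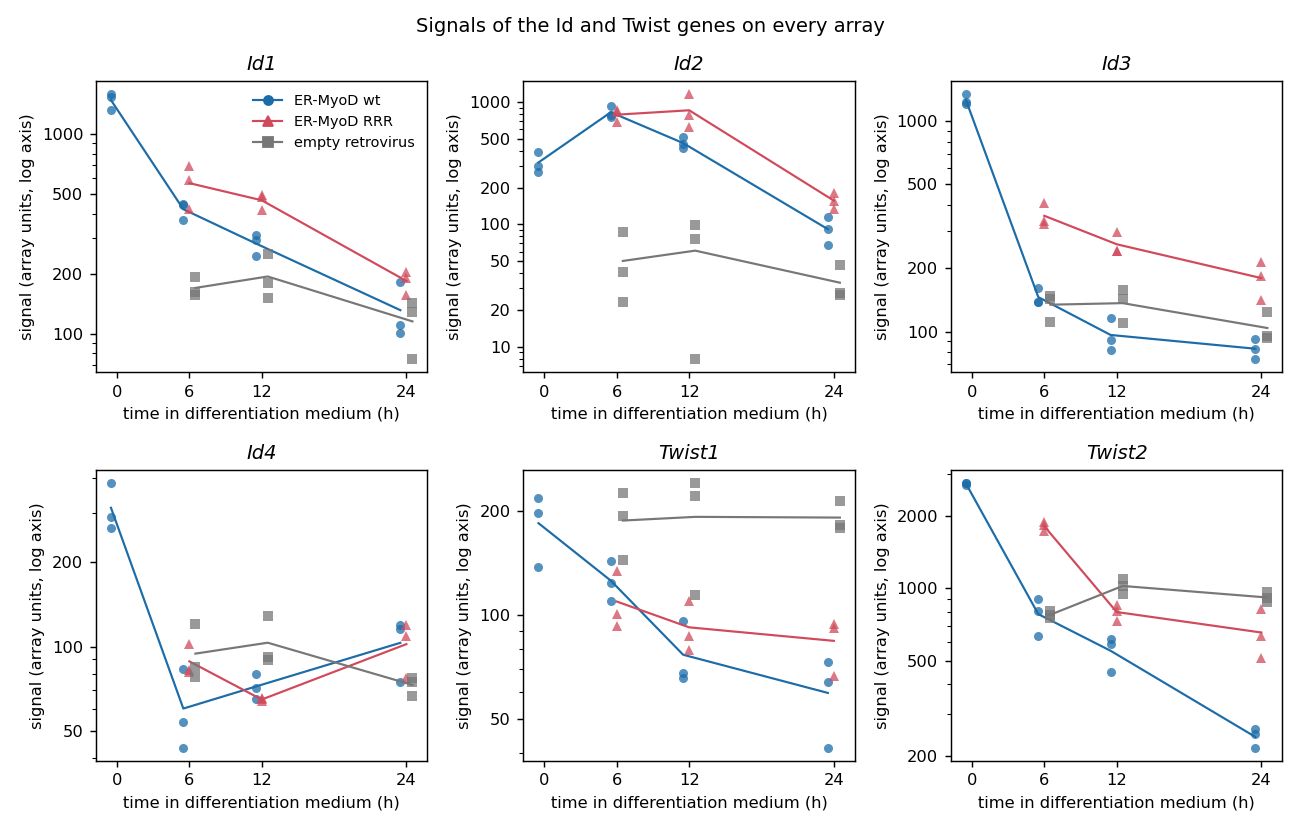
Deposited signal (array units, log axis) of the brightest probe set of each gene on all 30 arrays against hours in differentiation medium. Points are arrays, lines join the means of 3 arrays, and colours mark the construct. Id1, Id3, Id4 and Twist2 are highest in ER-MyoD wt at 0 h, Id2 is low on all empty retrovirus arrays, and Id3 in ER-MyoD RRR lies above the other constructs at 6, 12 and 24 h.

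Id3 was higher in ER-MyoD RRR than in both other constructs at 6, 12 and 24 h. Its ER-MyoD wt signals were 1342, 1234 and 1201 at 0 h, then 161, 139 and 138 at 6 h, 82.0, 116 and 91.4 at 12 h, and 82.7, 91.9 and 74.2 at 24 h. In ER-MyoD RRR they were 323, 406 and 336 at 6 h, 242, 296 and 242 at 12 h, and 184, 214 and 141 at 24 h. Empty retrovirus arrays read 111, 143 and 148 at 6 h, 143, 157 and 110.1 at 12 h, and 95.2, 93.3 and 123 at 24 h. No ER-MyoD RRR array overlapped with an array of another construct at the same time, and the ER-MyoD wt 0 h arrays lay above all others. ER-MyoD RRR exceeded ER-MyoD wt 2.20-fold at 6 h (log2 difference 1.14 ± 0.19, adjusted p = 0.00128), 2.36-fold at 12 h (1.24 ± 0.19, adjusted p = 0.000523) and 1.92-fold at 24 h (0.94 ± 0.19, adjusted p = 0.00412). With only the 6 arrays of the comparison in the fit, the adjusted p was 0.0586 at 6 h and 0.165 at 24 h. It also exceeded empty retrovirus, by 1.40 ± 0.19 at 6 h (adjusted p = 7.46e-06), 0.93 ± 0.19 at 12 h (adjusted p = 0.00192) and 0.74 ± 0.19 at 24 h (adjusted p = 0.00853). The 24 h difference was not past the threshold with arrays centred on their median (0.61, adjusted p = 0.0545) or with these 6 arrays alone (adjusted p = 0.0651). The same was so with ER-MyoD RRR replicate 2 (0.62, adjusted p = 0.0621) or empty retrovirus replicate 1 (0.66, adjusted p = 0.0516) left out. ER-MyoD wt minus empty retrovirus did not pass at any of the 3 times, at 0.27, -0.31 and -0.20, each ± 0.19. These comparisons share the arrays of each construct. Without ER-MyoD RRR 6 h replicate 2, the array with high 3' to 5' ratios, the 6 h difference from ER-MyoD wt was 1.03 (adjusted p = 0.00766) and that from empty retrovirus 1.30 (adjusted p = 0.000109). Without ER-MyoD wt 24 h replicate 3 the 24 h difference between the fusions was 0.77 (adjusted p = 0.0385).

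Twist2 differed between the fusions too, but against a control that lay elsewhere. ER-MyoD wt read 2701, 2749 and 2749 at 0 h, 632, 906 and 806 at 6 h, 613, 449 and 587 at 12 h, and 217, 246 and 258 at 24 h. ER-MyoD RRR read 1729.7, 1885 and 1832 at 6 h, 730.3, 807 and 854 at 12 h, and 820.4, 513 and 631 at 24 h. Empty retrovirus read 752, 801 and 778 at 6 h, 1095, 949.5 and 1026 at 12 h, and 874, 912 and 963 at 24 h. At all 3 times every ER-MyoD RRR array was above every ER-MyoD wt array. Relative to empty retrovirus, ER-MyoD RRR was above at 6 h and below at 12 and 24 h, again without overlap. The RRR minus wt difference was 1.17 ± 0.15 at 6 h (2.25-fold, adjusted p = 4.56e-05), 0.52 ± 0.15 at 12 h (adjusted p = 0.131, not past the threshold) and 1.42 ± 0.15 at 24 h (2.68-fold, adjusted p = 8.80e-07). Against empty retrovirus, ER-MyoD wt was lower, at -0.98 ± 0.15 at 12 h (adjusted p = 2.40e-05) and -1.93 ± 0.15 at 24 h (3.82-fold, adjusted p = 6.21e-11), and at -0.11 ± 0.15 at 6 h (adjusted p = 0.811). ER-MyoD RRR was above empty retrovirus at 6 h by 1.06 ± 0.15 (adjusted p = 1.28e-05), at -0.46 ± 0.15 at 12 h (adjusted p = 0.0707) and below it at 24 h (-0.51 ± 0.15, adjusted p = 0.0212). That last difference did not pass when ER-MyoD RRR replicate 2 (-0.35, adjusted p = 0.175) or 3 (adjusted p = 0.0622), or empty retrovirus replicate 1 (0.0534) or 3 (0.0689), was left out, nor with those 6 arrays alone (0.0838). At 6 h, ER-MyoD RRR without replicate 2 was 1.16 above ER-MyoD wt (adjusted p = 0.000223), and at 24 h the difference was 1.48 without ER-MyoD wt replicate 3 (adjusted p = 6.67e-06). Fibroblast marker sums, for 12 genes, ran from 41241 to 45957 in ER-MyoD RRR and 38636 to 46628 in ER-MyoD wt at 6 h, where they overlapped. At 12 h they were 37192 to 40652 in ER-MyoD RRR, 34780 to 36895.5 in ER-MyoD wt and 44456 to 49798.5 in empty retrovirus. At 24 h they were 51331 to 61232 in ER-MyoD RRR, 34011 to 44642 in ER-MyoD wt and 67210 to 80437 in empty retrovirus. At both times this was the same order as for Twist2, and their part in the 12 h and 24 h differences was not tested.

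Id2, by its brightest probe set, was lower in empty retrovirus than in both fusions at 6, 12 and 24 h. Its brightest probe set read 40.6, 23.1 and 87.2 in empty retrovirus at 6 h, 7.96, 99.3 and 76.1 at 12 h, and 26.6, 46.2 and 27.4 at 24 h. In ER-MyoD wt it read 395, 268 and 301 at 0 h, 758, 787 and 938 at 6 h, 424, 451 and 515 at 12 h, and 91.6, 115 and 67.8 at 24 h. In ER-MyoD RRR it read 829, 858 and 687 at 6 h, 789, 1162 and 627 at 12 h, and 154, 181 and 134 at 24 h. Fusion and control arrays did not overlap at any of the 3 times, and both fusions were lower at 24 h than at 6 h. ER-MyoD wt exceeded empty retrovirus 14.0-fold at 6 h (log2 difference 3.81 ± 0.40, adjusted p = 6.78e-08), 7.76-fold at 12 h (2.96 ± 0.40, adjusted p = 3.68e-06) and 2.19-fold at 24 h (1.13 ± 0.40, adjusted p = 0.0497). The differences of ER-MyoD RRR from empty retrovirus were 3.74 ± 0.40 at 6 h (13.3-fold, adjusted p = 1.36e-07), 3.76 ± 0.40 at 12 h (13.6-fold, adjusted p = 1.21e-07) and 1.81 ± 0.40 at 24 h (3.50-fold, adjusted p = 0.00209). The 12 h sizes rest in part on empty retrovirus 12 h replicate 1, which read 7.96: without it the 12 h differences were 2.19 in ER-MyoD wt (adjusted p = 8.63e-06) and 2.996 in ER-MyoD RRR (adjusted p = 1.04e-07). Between the fusions Id2 did not pass, at -0.07, 0.81 and 0.68, each ± 0.40 (adjusted p = 0.971, 0.623 and 0.533). For this probe set the arrays of the 2 fusions did not overlap at 12 and 24 h, ER-MyoD RRR being higher. For the other Id2 probe sets they overlapped at 12 h. How many of all genes separate in this way was not counted.

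The Id2 call in ER-MyoD wt at 24 h was close to the threshold. Its adjusted p was above 0.05 under 10 of its 16 alternatives, among them 5 of the 6 in which 1 array was left out. A second Id2 probe set read 80.4, 56.3 and 85.2 in ER-MyoD wt at 24 h against 10.5, 5.90 and 21.5 in empty retrovirus (1.68 ± 0.26, adjusted p = 1.81e-05). The third and dimmest, with a mean of 28.2 over all arrays, gave -0.12 ± 0.33 there (adjusted p = 0.886). At 6 h all 3 Id2 probe sets were higher in both fusions than in empty retrovirus, at 3.81, 2.36 and 1.21 in ER-MyoD wt and 3.74, 2.55 and 1.26 in ER-MyoD RRR.

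Id1 was above the control in both fusions early in the time course. It read 1585, 1316 and 1545 in ER-MyoD wt at 0 h, 442, 372 and 447 at 6 h, 293, 313 and 244 at 12 h, and 101, 111 and 182 at 24 h. ER-MyoD RRR arrays read 694, 421 and 590.0 at 6 h, 495, 486 and 418 at 12 h, and 157, 191 and 203 at 24 h. Empty retrovirus arrays read 161, 192 and 155 at 6 h, 252, 150.2 and 179 at 12 h, and 74.7, 129 and 142 at 24 h. The fusions overlapped with each other at 6 and 24 h but not at 12 h, and the control lay below both fusions at 6 h. ER-MyoD wt exceeded empty retrovirus by 1.29 ± 0.21 at 6 h (2.45-fold, adjusted p = 6.44e-05), and the differences of 0.58 ± 0.21 at 12 h and 0.29 ± 0.21 at 24 h did not pass (adjusted p = 0.0842 and 0.426). The 12 h array of empty retrovirus with the highest Id1 signal, replicate 1, was also the array with the highest median, and without it the difference was 0.76 (adjusted p = 0.0296). ER-MyoD RRR exceeded empty retrovirus by 1.69 ± 0.21 at 6 h (adjusted p = 1.53e-06), 1.24 ± 0.21 at 12 h (adjusted p = 0.000168) and 0.70 ± 0.21 at 24 h (adjusted p = 0.0248). The 24 h call was lost when ER-MyoD RRR replicate 2 (0.68, adjusted p = 0.0680) or 3 (0.62, adjusted p = 0.106) or empty retrovirus replicate 1 (0.42, adjusted p = 0.233) was left out, under median centring (adjusted p = 0.0957), and with those 6 arrays alone (adjusted p = 0.119). Between the fusions the differences were 0.40, 0.66 and 0.41, each ± 0.21, and none passed (adjusted p = 0.434, 0.212 and 0.434).

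Id4 had 1 feature, a high level in ER-MyoD wt at 0 h. The brightest probe set read 289.6, 265 and 384 there and between 43.7 and 129 on the other 27 arrays. The second probe set read 434, 322 and 418 at 0 h and at most 76.2 elsewhere, and the third 236, 197 and 168 against at most 104. Among the 9 later groups no Id4 probe set passed in any comparison between constructs at one time. The brightest gave 0.47 ± 0.20 for ER-MyoD RRR minus ER-MyoD wt at 6 h (adjusted p = 0.296) and 0.48 ± 0.20 for ER-MyoD wt minus empty retrovirus at 24 h (adjusted p = 0.112).

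By 24 h Twist1 was lower in both fusions than in the control. Empty retrovirus read 194, 145 and 225 at 6 h, 115, 241 and 222 at 12 h, and 183, 214 and 178 at 24 h. ER-MyoD wt read 219, 138 and 197 at 0 h, 109.7, 144 and 124 at 6 h, 65.9, 96.5 and 68.2 at 12 h, and 64.02, 73.4 and 41.4 at 24 h. ER-MyoD RRR read 101, 134 and 93.1 at 6 h, 87.3, 110.1 and 79.4 at 12 h, and 66.8, 92.1 and 94.1 at 24 h. Neither fusion overlapped with the control at any of the 3 times, while the fusions overlapped with each other throughout. ER-MyoD wt was lower than empty retrovirus, at -1.40 ± 0.27 at 24 h (2.64-fold, adjusted p = 0.000350) and at -0.96 ± 0.27 at 12 h (adjusted p = 0.0232). The 12 h call was lost without ER-MyoD wt replicate 1 (-0.86, adjusted p = 0.105) or 3 (-0.93, adjusted p = 0.0698), without empty retrovirus replicate 2 (-0.72, adjusted p = 0.166) or 3 (-0.79, adjusted p = 0.135), and with those 6 arrays alone (adjusted p = 0.171). ER-MyoD RRR was lower, at -1.10 ± 0.27 at 24 h (adjusted p = 0.00678), and at -0.50 ± 0.27 at 6 h and -0.72 ± 0.27 at 12 h it did not pass (adjusted p = 0.322 and 0.150). The 24 h difference of ER-MyoD wt from empty retrovirus, when its replicate 3 was left out, was -1.0999 (adjusted p = 0.00678). Without empty retrovirus 12 h replicate 1, the array at 115, ER-MyoD RRR minus empty retrovirus at 12 h was -1.12 (adjusted p = 0.00779).

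The order of the 10 groups differed between the genes. For Id3, mean signals descended from ER-MyoD wt at 0 h (1259 ± 73.5, SD, n = 3) through ER-MyoD RRR at 6 h (355 ± 45.1) and 12 h (260.0 ± 31.3), and the arrays of these 3 groups did not overlap. From ER-MyoD RRR at 24 h (179.5 ± 36.8) down to ER-MyoD wt at 24 h (82.9 ± 8.84), every neighbouring pair of Id3 groups overlapped. Id1 began with ER-MyoD wt at 0 h (1482 ± 145), then ER-MyoD RRR at 6 h (568 ± 138) and 12 h (466 ± 42.4) and ER-MyoD wt at 6 h (420.5 ± 41.7), which overlapped in turn. For Id2 the highest 3 groups, ER-MyoD RRR at 12 h (859 ± 274), ER-MyoD wt at 6 h (828 ± 96.7) and ER-MyoD RRR at 6 h (791 ± 91.8), overlapped. They were followed without overlap by ER-MyoD wt at 12 h (463 ± 46.7) and 0 h (321 ± 65.6) and ER-MyoD RRR at 24 h (157 ± 23.7). For Twist2 the ends stood alone, ER-MyoD wt at 0 h (2733 ± 27.9) and at 24 h (241 ± 21.2), and so did ER-MyoD RRR at 6 h (1815 ± 78.7). A further gap lay between empty retrovirus at 24 h (916 ± 44.4) and ER-MyoD RRR at 12 h (797 ± 62.7). Below ER-MyoD wt at 0 h (313 ± 62.5), the brightest Id4 probe set had means of 60.1 to 103, with a gap between neighbours only from ER-MyoD RRR at 6 h (88.6 ± 11.54) to empty retrovirus at 24 h (73.0 ± 5.68). Twist1 had no gap between neighbours from empty retrovirus at 12 h (193 ± 68.2) to ER-MyoD wt at 24 h (59.6 ± 16.4).

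The first comparison asked how the inhibitors moved in ER-MyoD wt cells from 0 h. By 24 h all 6 genes had fallen (28.8% of all genes passed in that comparison), with a median log2 difference of -2.50 against -0.03 over all genes. At 6 h 4 genes had fallen and 1, Id2, had risen (15.6% of all genes passed), and at 12 h 5 had fallen (17.7% passed). The medians were -1.67 and -1.9997, against -0.05 and -0.02 over all genes. Among the brightest probe sets Id3 fell most at 6 and 12 h (a dimmer Id4 probe set was at -2.90 at 6 h), at -2.81 ± 0.19 and -3.36 ± 0.19, and reached -3.63 ± 0.19 at 24 h (12.4-fold, adjusted p = 1.72e-14). Id1 fell, at -1.68, -2.19 and -3.25, each ± 0.21, and Twist2 at -1.66, -2.12 and -3.23, each ± 0.15. For the brightest Id4 probe set the largest change was already there at 6 h (-2.04 ± 0.20), with -1.88 at 12 h and -1.54 at 24 h, and all 3 Id4 probe sets passed at each time. Twist1 was at -0.49 ± 0.27 at 6 h (adjusted p = 0.321), -1.15 at 12 h and -1.54 at 24 h, the last 2 past the threshold. Id2 rose by 1.24 ± 0.40 at 6 h (adjusted p = 0.0431), was at 0.46 at 12 h (adjusted p = 0.587) and fell to -1.77 ± 0.40 at 24 h (adjusted p = 0.00124). The rise at 6 h did not pass when any 1 of the 6 arrays was left out (adjusted p between 0.0580 and 0.139), and the other Id2 probe sets gave 0.76 (adjusted p = 0.0684) and 0.01 (adjusted p = 0.996).

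**Figure D2:**
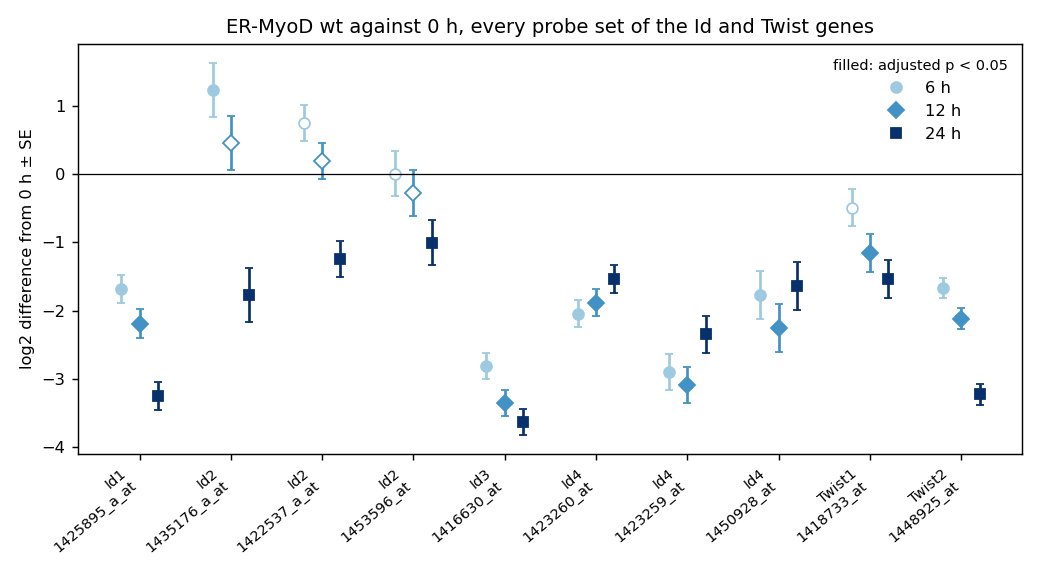
Log2 difference of ER-MyoD wt at 6, 12 and 24 h from 0 h for each of the 10 probe sets, with standard errors from the model (3 arrays per group). Filled points passed at an adjusted p under 0.05. All probe sets of Id1, Id3, Id4 and Twist2 lie below 0 at each time, and those of Id2 are below 0 with a pass only at 24 h.

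ER-MyoD RRR was then set against ER-MyoD wt, which asks what changes when the 3 lysines cannot be acetylated. Of the 6 genes 2 were higher in ER-MyoD RRR at 6 h (Id3 and Twist2, 2.52% of all genes passed), 1 at 12 h (Id3, 1.17%) and 2 at 24 h (Id3 and Twist2, 4.13%), and none was lower. The medians of the 6 differences were 0.43, 0.59 and 0.54, against 0.05, 0.01 and 0.0029 over all genes. That Id3 and Twist2 were higher in the mutant at 6 h was known when the 6 genes were chosen, so these counts are no independent support.

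Each fusion was also compared with empty retrovirus. In ER-MyoD wt, 2 genes were higher at 6 h (Id1 and Id2, 11.1% of all genes passed). At 12 h 1 was higher and 2 lower (Id2, then Twist1 and Twist2, 13.8%), and the same split held for the same 3 genes at 24 h (23.6%). In ER-MyoD RRR, 4 genes were higher at 6 h (Id1, Id2, Id3 and Twist2, 12.2%) and 3 at 12 h (Id1, Id2 and Id3, 8.39%). At 24 h 3 were higher and 2 lower (Id1, Id2 and Id3, then Twist1 and Twist2, 17.0%). Both comparisons use the same empty retrovirus arrays. Under median centring 3 genes passed in ER-MyoD RRR at 24 h, and 2 with those 6 arrays alone.

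**Figure D3:**
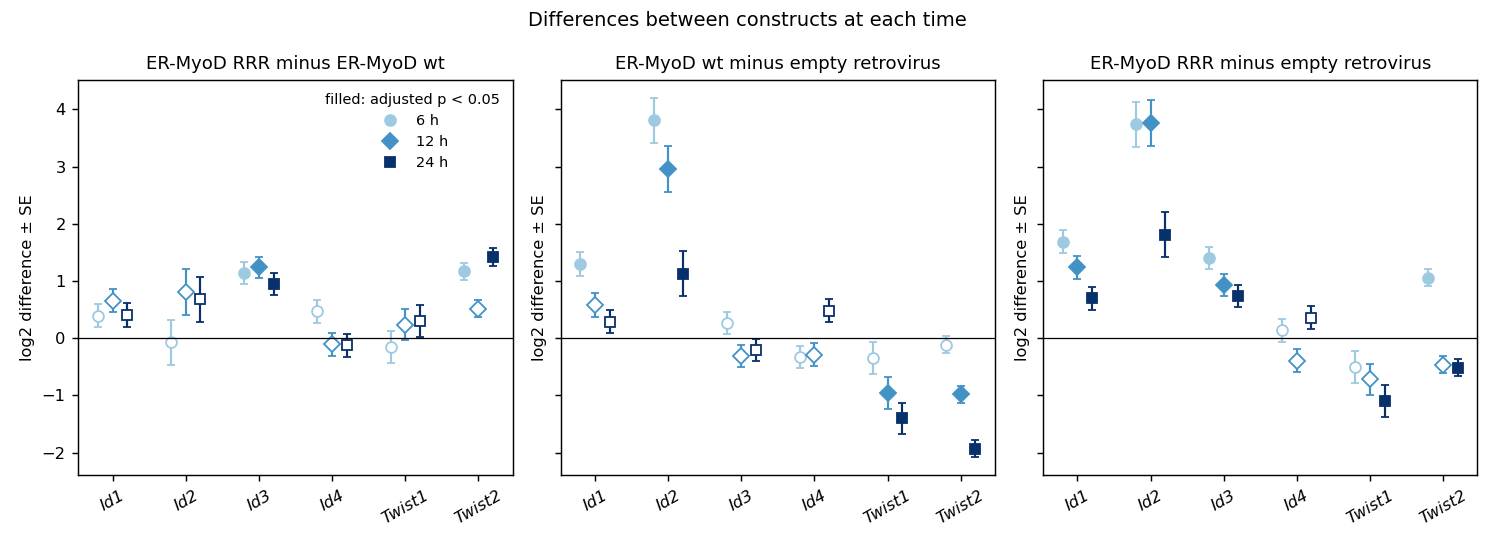
Log2 differences between constructs at 6, 12 and 24 h for the 6 genes, with standard errors from the model (3 arrays per group) and filled points for an adjusted p under 0.05. Id3 is near 1 in ER-MyoD RRR minus ER-MyoD wt at each time, Id2 is between 1.13 and 3.81 above empty retrovirus in both fusions, and Twist2 in ER-MyoD wt drops to -1.93 below it at 24 h.

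The interval from 6 h to 24 h was sampled for all 3 constructs. In ER-MyoD wt 5 genes fell over it, all but Id4 (21.7% of all genes passed), and in ER-MyoD RRR 4 fell, Id1, Id2, Id3 and Twist2 (21.9%). In empty retrovirus 0 of the 6 passed by limma on the brightest probe sets (14.0%), where 1, Id1, had an unadjusted p under 0.05 (-0.57 ± 0.21, adjusted p = 0.0936). Id1 passed there under 3 alternatives, with dim probe sets left out, without the 3 arrays set apart, and without empty retrovirus 24 h replicate 3 (-0.74, adjusted p = 0.0379). For Id2 the brightest probe set was at -0.33 there (adjusted p = 0.786), while the second fell, at -1.32 ± 0.26 (adjusted p = 0.000902). Id2 fell, at -3.004 ± 0.40 in ER-MyoD wt and -2.26 ± 0.40 in ER-MyoD RRR, and Id1 at -1.57 and -1.56, each ± 0.21. Twist2 fell, at -1.56 and -1.31, each ± 0.15, while in empty retrovirus it was at 0.26 ± 0.15 (adjusted p = 0.404). Twist1 fell in ER-MyoD wt (-1.04 ± 0.27, adjusted p = 0.00745; -0.75 and adjusted p = 0.0906 without ER-MyoD wt 24 h replicate 3).

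**Figure D4:**
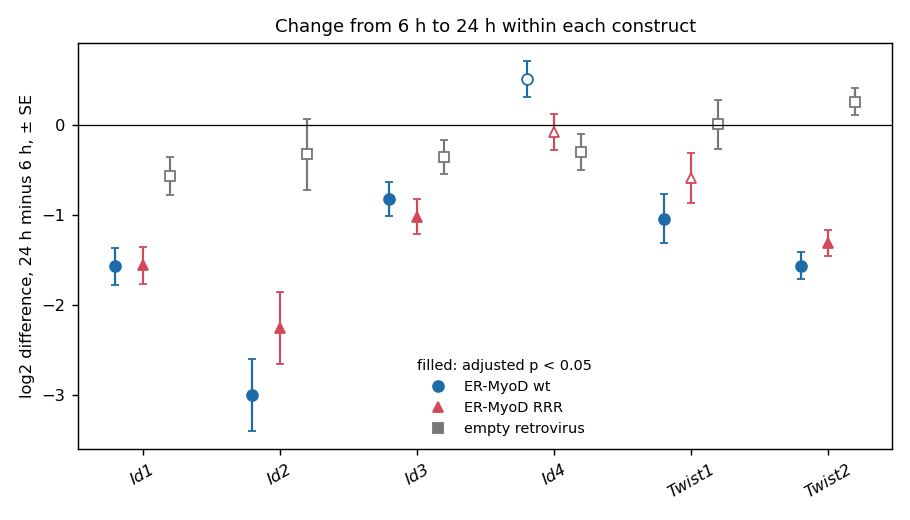
Log2 difference of 24 h minus 6 h within each construct for the 6 genes, with standard errors from the model (3 arrays per group). Filled points passed at an adjusted p under 0.05. Id1, Id2, Id3 and Twist2 fell in both fusions, and no filled point belongs to empty retrovirus.

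Whether these changes differed between constructs was tested directly. The change from 6 h to 24 h was more negative in ER-MyoD wt than in empty retrovirus for 3 genes (12.7% of all genes passed): Twist2 by -1.82 ± 0.21 (adjusted p = 4.74e-07), Id2 by -2.68 ± 0.56 (adjusted p = 0.00170) and Id1 by -1.004 ± 0.29 (adjusted p = 0.0287). Set against empty retrovirus, ER-MyoD RRR gave a more negative change for the same 3 genes (8.81%): Twist2 by -1.57 ± 0.21 (adjusted p = 1.14e-05), Id2 by -1.93 ± 0.56 (adjusted p = 0.0390) and Id1 by -0.99 ± 0.29 (adjusted p = 0.0417). Between the fusions 0 of the 6 passed by limma (1.33% of all genes passed), and 1, Id4, had an unadjusted p under 0.05 (-0.59 ± 0.28, adjusted p = 0.449). With 1 of the 12 arrays left out, Id1 in ER-MyoD wt kept its call only without ER-MyoD wt 6 h replicate 2 or 24 h replicate 3, or empty retrovirus 6 h replicate 2 or 24 h replicate 1 (adjusted p up to 0.105 otherwise). In ER-MyoD RRR the Id1 call was kept only without ER-MyoD RRR 6 h replicate 2 or 24 h replicate 3 or the same empty retrovirus arrays (up to 0.143), and the Id2 call only without ER-MyoD RRR 6 h replicate 3 or empty retrovirus 6 h replicate 3 or 24 h replicate 1 (up to 0.132). The other Id2 probe sets did not pass in these tests, at -0.68 and -1.33 in ER-MyoD wt and -0.46 and -0.77 in ER-MyoD RRR.

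The partners and relatives of the inhibitors were read from lists written with earlier results of these data known. Their counts are read beside the shares of all genes that passed: 15.6%, 17.7% and 28.8% in ER-MyoD wt from 0 h, and 2.52%, 1.17% and 4.13% between the fusions. Of the 3 E proteins, which Id proteins bind, 0 passed by limma between the fusions at any time, and 1, 0 and 1 had an unadjusted p under 0.05 at 6, 12 and 24 h. In ER-MyoD wt Tcf12 rose from 0 h by 1.32 at 6 h, 1.51 at 12 h and 1.83 at 24 h, each ± 0.14, at mean signals of 639 ± 41.0 (SD, n = 3) at 0 h and 2208 ± 167 at 24 h. At 24 h Tcf4 had also risen (1.55 ± 0.26) and Tcf3 had fallen (-0.65 ± 0.20, adjusted p = 0.0173). Against empty retrovirus Tcf3 was lower in ER-MyoD wt at all 3 times, at -0.93, -0.80 and -0.97, each ± 0.20. With arrays centred on their median Tcf3 did not pass at 6 h (-0.61, adjusted p = 0.182) or 12 h (-0.56, adjusted p = 0.226). Tcf12 went the other way and was higher in ER-MyoD wt than in empty retrovirus at 12 and 24 h. Under median centring its limma differences there were 0.87 (adjusted p = 0.00216) and 0.68 (adjusted p = 0.0110), and 0.57 at 6 h (adjusted p = 0.0697). Tcf4 did not pass against empty retrovirus in ER-MyoD wt.

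Among 19 measured genes of other repressors of MyoD activity, 4 rose and 3 fell in ER-MyoD wt from 0 h to 24 h (28.8% of all genes passed), with a median of -0.02 against -0.03 over all genes. Zeb1, a zinc-finger repressor that binds E-boxes, rose by 3.37 ± 0.12, and Hey1, a repressor downstream of Notch, by 2.66 ± 0.26, while Mdfic, a relative of the MyoD inhibitor I-mfa, fell, at -1.48 ± 0.16. Hey1 was also above empty retrovirus in both fusions, at 3.001 in ER-MyoD wt and 2.97 in ER-MyoD RRR at 12 h, each ± 0.26. Between the fusions 1 of the 19 passed at 6 h (Zeb1, -0.45 ± 0.12, adjusted p = 0.0479), 0 at 12 h (2 with an unadjusted p under 0.05) and 1 at 24 h (Mdfic, 1.04 ± 0.16, adjusted p = 0.000237). The Zeb1 call did not hold under 5 alternatives, and 1 to 3 of the 19 passed at 24 h.

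In the BMP pathway, several inhibitors of the signal fell in ER-MyoD wt from 0 h. A link between their fall and that of the Id genes was not tested. Of 16 measured antagonists and feedback inhibitors, 2 rose and 5 fell in ER-MyoD wt at 6 h, 3 and 7 at 12 h, and 3 and 7 at 24 h, where 15.6%, 17.7% and 28.8% of all genes passed (medians -0.44, -0.34 and -0.67). Smad7, an inhibitory Smad, had mean signals of 659 ± 16.7 at 0 h and 64.8 ± 21.5, 41.0 ± 11.48 and 19.3 ± 9.02 at 6, 12 and 24 h (log2 differences -2.93, -3.49 and -4.25, each ± 0.27). Grem1, a secreted BMP antagonist, fell, at -2.04, -2.81 and -3.43, each ± 0.25, and Bambi, a decoy receptor, at -2.06 at 12 h and -2.08 at 24 h, each ± 0.22. Between the fusions 0 of these 16 passed by limma at 6 h and at 12 h, where 3 each had an unadjusted p under 0.05. Smad7 was at 0.61 ± 0.27 at 6 h (adjusted p = 0.314) and 1.05 ± 0.27 at 12 h (adjusted p = 0.0668), and 1 passed at 24 h, Fstl1, a follistatin relative (1.06 ± 0.17, adjusted p = 0.000287), which did not pass under median centring.

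Of 11 BMP receptors and co-receptors, 3 rose in ER-MyoD wt at 6 h, 3 rose and 1 fell at 12 h, and 6 rose and 2 fell at 24 h, among them the type I receptor Bmpr1a (0.997 ± 0.12) and the co-receptor Hjv (3.25 ± 0.28). Of 9 measured genes of 12 on the ligand list, 1 rose and 1 fell at 24 h, Gdf10 (1.27 ± 0.30) and Bmp1 (-1.02 ± 0.21), the second a protease and not a ligand. Of 6 Smads, 1 rose at 6 h (Smad3, 0.60 ± 0.11), and 1 fell at 12 h and at 24 h (Smad1, -0.69 and -0.53, each ± 0.18). In ER-MyoD RRR minus ER-MyoD wt these 3 lists held few calls. At 6 h 1 ligand list gene passed, Bmp1 (0.80 ± 0.21, adjusted p = 0.0483), at 12 h none did (1 ligand list gene, 3 receptors and 1 Smad had an unadjusted p under 0.05), and at 24 h Gdf10 (-1.37 ± 0.30, adjusted p = 0.00904) and Hjv (-1.02 ± 0.28, adjusted p = 0.0461) were lower. Bmp1 and Hjv did not pass under several alternatives, median centring among them.

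Several muscle genes that MyoD activates were lower in ER-MyoD RRR than in ER-MyoD wt. Of 15 such genes 7 were lower in ER-MyoD RRR than in ER-MyoD wt at 6 h, 7 at 12 h and 1 at 24 h, none was higher, and the medians were -0.91, -0.83 and -0.54. Tnnc1, the slow troponin C gene, was at -1.19 ± 0.15, -2.07 ± 0.15 and -0.63 (adjusted p = 4.23e-05, 3.18e-09 and 0.0174). The count was 3 at 6 h with those 6 arrays alone, 3 at 12 h with a pseudocount of 1, and 2 to 7 at 24 h under 5 alternatives. Of 19 measured proliferation genes, 9 rose in ER-MyoD wt from 0 h to 6 h, and 18 fell from 0 h to 24 h (median -2.10). From 6 h to 24 h 18 fell in ER-MyoD wt and 18 in ER-MyoD RRR, while in empty retrovirus 15 fell and 1 rose. The medians were -2.72, -2.02 and -1.04, where 21.7%, 21.9% and 14.0% of all genes passed. Between the fusions 0 passed at 6 h and 0 at 12 h (5 and 2 with an unadjusted p under 0.05), and 8 were higher in ER-MyoD RRR at 24 h, Pcna by 0.65 and Cdc20 by 1.15. The part of Id3 or Twist2 in these muscle and proliferation gene differences was not tested. Under median centring 1 of the 19 passed at 24 h, and 1 with those 6 arrays alone, while 4 passed at 6 h without the 3 arrays set apart. Of 14 reported Id or Twist targets and Twist relatives, 0 passed at 6 and 12 h (3 and 5 with an unadjusted p under 0.05), and 4 were higher at 24 h, among them Thbs1 (1.27 ± 0.31), Fn1 (0.46 ± 0.12) and Pdgfrb (1.02 ± 0.27), the last 2 also on the list of fibroblast markers. Under median centring 0 of these 14 passed at 24 h.

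The 6 genes did not share one profile over the 10 groups. Across the 10 group means Pearson's r was 0.907 between Id1 and Id3, 0.796 between Id3 and Id4, 0.789 between Id3 and Twist2, and 0.761 between Twist1 and Twist2. For Id2 it was 0.747 with Id1, 0.031 with Id4 and -0.249 with Twist1. These values describe 10 means that share arrays and a common 0 h group, and carry no test. Among 5397 genes compared, those most like Id3 were Yif1b (0.969), Klf16 (0.969), Med11 (0.965) and Cryl1 (0.953), and those most like Id1 were Mrpl28 (0.944), Trib2 (0.943), Ap2s1 (0.941) and Rangrf (0.941). Nearest to Id4 were Junb (0.952), Nr4a1 (0.950), Dusp5 (0.948) and Imp3 (0.942), and nearest to Id2 Hs2st1 (0.950), Slc16a1 (0.947), Fkbp5 (0.946) and Rgs12 (0.944). For Twist1 they were Elk3 (0.979), Tsc22d2 (0.975), Itpripl2 (0.971) and Plekhg2 (0.966), and for Twist2 Tmem63a (0.976), Crtap (0.968), Mapre2 (0.965) and Ift43 (0.962).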

How the data were processed

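RNA of 30 samples was hybridised to 1-colour mouse arrays with biotin label, per the labels. The deposited values are linear signal intensities, 1 per probe set and array. How they were computed and scaled is not stated in the sources used here. Each array's mean without its highest and lowest 2% came to 150.001 in these deposited intensities. No detection calls were used.

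The 64 control probe sets among 45101 were set aside, and 45037 were quantile-normalized and turned into log2(signal + 16), with no filter on dim probe sets. The platform annotation, which can be old, gave 1 symbol for 34945 of them, several for 932 and none here for 9160. The probe set with the highest mean among those with 1 symbol was taken for its gene. Levels in the text are the deposited signals; their overlap between groups was read from these.

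A model with 1 mean per group was fitted with limma 3.58.1 in R 4.3.3 (lmFit, eBayes with trend; residual degrees of freedom: 20). From it came 15 differences between groups and 3 between changes, with two-sided p-values adjusted by Benjamini-Hochberg over 45037 probe sets within a comparison. The share of genes that passed is over 18193 genes. The fit was tested on simulated data. Alternatives were other scalings, pseudocounts of 1 and 64, a minimum mean signal of 64, a single probe set tested per gene, other probe sets, fits limited to the groups compared, no trend, a replicate block, and fewer arrays.

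The 6 genes and all gene lists were chosen with earlier results of these data known. Up to 3 genes per list and comparison were named by the smallest p, and 4 genes per member by the highest r over group means, among genes that span at least 1 and reach 7 (log2). Promoters came from RefSeq. Further software was the R package data.table (version 1.17.8), Python 3.11.15, pandas 2.3.3 and matplotlib 3.10.9.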

Additional observations from a re-analysis of the deposited data

Results flagged for a closer look

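The change from 6 h to 24 h differed between each fusion and the empty retrovirus for 3 of the 6 genes, by the test of that difference in the model. ER-MyoD wt minus empty retrovirus gave -1.004 for Id1, -2.68 for Id2 and -1.82 for Twist2 (12.7% of all genes passed). For ER-MyoD RRR minus empty retrovirus the values were -0.99 for Id1, -1.93 for Id2 and -1.57 for Twist2 (8.81%). Both sets use the same empty retrovirus arrays. Twist2 in both fusions and Id2 in ER-MyoD wt passed under all 22 alternatives, other probe sets aside. Id2 in ER-MyoD RRR passed under 11 of 22. Id1 passed under 13 in ER-MyoD wt and 11 in ER-MyoD RRR. The other Id2 probe sets did not pass in either test.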

How the results depend on the processing

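The 44 alternatives included the other probe sets of a gene. Leaving these aside, each gene and comparison pair was run under 16 or 22 alternatives. Of the 56 pairs that passed, 44 did so under every alternative run for them, and 45 of the 52 that did not pass never did. With the other probe sets included the counts were 39 and 44. The 5 pairs lost were all Id2, with its dimmest probe set not past the threshold: ER-MyoD wt minus empty retrovirus at 12 h (0.68), ER-MyoD RRR minus empty retrovirus at 12 h (0.99) and 24 h (0.49), ER-MyoD RRR from 6 h to 24 h (-0.46), and the change in ER-MyoD wt minus empty retrovirus (-1.33). For that change the second Id2 probe set (-0.68) did not pass either. The pair gained was Id2 in empty retrovirus from 6 h to 24 h (-1.32 with the second probe set). With the representative probe sets no pair that passed changed sign. With the dimmest Id2 probe set, ER-MyoD wt minus empty retrovirus at 24 h was reversed, at -0.12 (adjusted p = 0.886). The cause of the shifts below was not tested.

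Fitting only the groups compared, which leaves fewer arrays in the model, left 1 of 2 genes past the threshold in ER-MyoD RRR minus ER-MyoD wt at 6 h and 1 of 2 at 24 h, the lost gene being Id3 in both. In ER-MyoD RRR minus empty retrovirus at 24 h it left 2 of 5, median centring left 3, and leaving out 1 array gave 2 to 5. For the change from 6 h to 24 h in ER-MyoD RRR minus empty retrovirus, 1 of 3 genes passed without trend and 1 with a pseudocount of 1, and leaving out 1 array gave 1 to 3. In empty retrovirus from 6 h to 24 h, 1 gene in place of 0 passed with dim probe sets left out and 1 without the 3 arrays set apart, and leaving out 1 array gave 0 to 1.

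Median centring shifted the median of all genes by between -0.12 (ER-MyoD RRR from 6 h to 24 h) and 0.11 (ER-MyoD RRR minus empty retrovirus at 12 h), and the scaling as deposited by up to 0.12 (ER-MyoD RRR from 6 h to 24 h). It moved the share of higher calls from 39.9% to 19.2% in ER-MyoD RRR minus ER-MyoD wt at 6 h and from 65.0% to 39.6% at 24 h. In ER-MyoD wt minus empty retrovirus it went from 52.5% to 73.1% at 6 h and from 47.0% to 63.6% at 12 h. In ER-MyoD RRR minus empty retrovirus it went from 51.9% to 67.6%, 52.4% to 76.4% and 44.9% to 34.7% at 6, 12 and 24 h, and from 6 h to 24 h from 47.2% to 36.8% in ER-MyoD wt and 46.0% to 29.4% in ER-MyoD RRR.

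Arrays with the same replicate number deviated together weakly at most, with a mean r of 0.021 against -0.0104 for other numbers. The same-number values ran from -0.142 to 0.216 over 135 pairs, 16 of them over 0.1. By mean r 18 of 30 arrays were nearest to their own number, so whether the numbers pair the samples is not known. With a replicate block the counts of the 6 genes were the same in every comparison (2, 1 and 2 in ER-MyoD RRR minus ER-MyoD wt), with an adjusted p of 0.000558 for Id3 at 6 h. With 3 arrays a group and no detection calls, how far dim signals such as Id2 in empty retrovirus lie above background is unknown.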
